A study of Mus musculus with 8 samples.

Results

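The genes described here are 10 that store, admit or export calcium in the mouse egg. They were taken by symbol from a table of 55385 genes, and all 10 were found and passed the filter on low counts. They are Itpr1, Itpr2 and Itpr3, receptors for inositol trisphosphate (IP3) that let calcium out of the endoplasmic reticulum, Orai1 and Stim1, the channel and the sensor of store-operated entry, Trpm7, Cacna1h and Trpv3, channels of the plasma membrane, and Atp2a2 and Atp2b1, pumps of the endoplasmic reticulum and the plasma membrane. Polyadenylated RNA was sequenced from pools of oocytes grown in culture from mouse embryonic stem cells of C57BL/6 x 129/SvJ strain with Blimp1-mVenus and Stella-ECFP reporters. One line is named sex converted XX in the labels and the other native XX, each represented by a single line, so that genotype and line cannot be told apart. Germ cells made from either line were aggregated with gonadal somatic cells of female embryos of day 12.5. The aggregates were cultured to day 21 of in vitro differentiation, and 11 days of growth culture followed. Oocytes were then taken at the germinal vesicle stage (GV, arrested in the first meiotic prophase, held with dbcAMP and IBMX while cumulus cells were removed) or after a further 16 h of maturation at metaphase II (MII, the stage at which an egg is fertilised). The 4 groups held 2 libraries each, which the labels call biological duplicates, with 31 to 158 oocytes in a GV pool and 35 to 58 in an MII pool.

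At fertilisation the sperm brings a phospholipase C into the egg, IP3 is made, and IP3 receptors release calcium from the endoplasmic reticulum in repeated waves. Each wave ends when pumps return calcium to the store or drive it out of the cell, and the waves last only while calcium enters from outside to refill the store. The capacity to produce these waves is known to develop during oocyte maturation, the interval that separates the GV and MII libraries.

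Total counts were 10306471 to 14999003 reads per library. Oocyte markers were high in every library, as the 10 fixed markers summed to 13470 to 21340 CPM (counts per 1000000 reads, scaled by trimmed mean of M-values factors, TMM). Markers of granulosa and cumulus cells, 15 in all, summed to 56.9 to 78.8 CPM at GV and 116 to 138 CPM at MII. Most of each sum was Cyp19a1, Kitl and Nr5a2, and these did not move alike. In native and sex-converted oocytes, Cyp19a1 went from means of 17.4 and 12.9 CPM at GV to 56.6 and 49.3 CPM at MII. Kitl went from 4.2 and 5.56 CPM to 22.9 and 31.2 CPM. Nr5a2 was lower in every MII library than in any GV library, and Fshr had 7 to 24 reads at GV and 0 at MII. The 14 markers of stroma, vessels and blood summed to 60.6 to 89.4 CPM at GV and 193 to 295 CPM at MII, most of which was Pecam1 (837 to 2884 reads). Of these, Col1a2, Lum and Hba-a1 had 0 reads in every library.

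Of the 10 mRNAs, Atp2b1, Atp2a2, Itpr1 and Itpr2 rose and Orai1, Trpm7 and Cacna1h fell from GV to MII in both lines. Orai1 fell most, 32.6-fold in the native line and 34.0-fold in the sex-converted line. Trpm7 and Cacna1h fell by 1.66-fold to 2.28-fold. Atp2b1 rose 3.76-fold and 4.97-fold, Atp2a2 2.65-fold and 2.79-fold, and the IP3 receptor genes Itpr1 and Itpr2 rose by 1.39-fold to 1.63-fold, a rise that depended on the scaling. In the native line 5 of the 10 genes rose and 3 fell at an adjusted p under 0.05 in edgeR's quasi-likelihood test, beside 29.6% and 35.7% of all 14929 genes tested. In the sex-converted line 4 rose and 4 fell, beside 29.3% and 36.2%. With 10 genes and 65.2% and 65.5% of all genes called in either direction, these counts are not read as particular to calcium genes, and the results below are those of single genes. All 10 had libraries that did not overlap between the stages in the native line and 9 in the sex-converted line, beside 83.5% and 84.8% of all genes. The median log2 fold change of the 10 was 0.67 and -0.0065 in the lines, and that of all genes tested -0.307 and -0.345. Because the libraries hold polyadenylated RNA, a change in poly(A) tails and a change in mRNA amount cannot be told apart, and TMM scaling sets each gene against the rest of the mRNA.

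**Figure D1:**
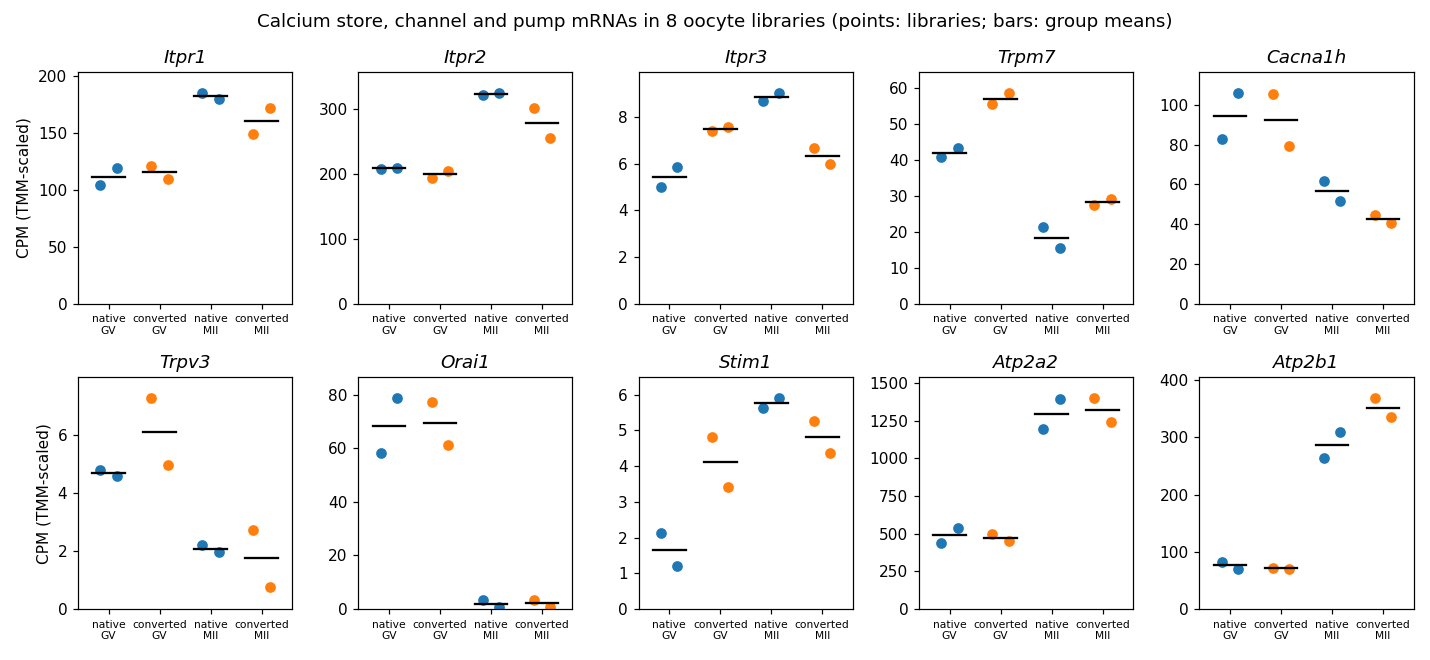
Level of each of the 10 mRNAs in CPM (TMM-scaled, linear axes from 0) in the 8 libraries, with points for libraries and bars for the means of 2 libraries, native in blue and sex-converted in orange. Orai1 lies at 58.2 to 78.7 CPM in the GV libraries and at 0.761 to 3.39 CPM in the MII libraries, while Atp2a2 and Atp2b1 are higher in every MII library than in any GV library.

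The 3′ ends of these mRNAs are shown because they carry the signals that set poly(A) tails, and the libraries were selected by tail. In the maturing oocyte, mRNAs with a cytoplasmic polyadenylation element near the nuclear polyadenylation signal are known to gain tails. The last 150 bases of the principal coding transcript of each gene were searched on the mRNA strand only. The cytoplasmic elements searched were the hexamer TTTTAT and the longer variant TTTTAAT. The nuclear signal was searched as its usual form AATAAA and as its common variant ATTAAA. The end of the longer element can overlap the usual signal, though in none of the 10 genes did it do so. Only the pump mRNAs Atp2a2 and Atp2b1 held a cytoplasmic element, with 1 and 2, and the other 8 had none. Stretches of 30 bases around the elements are given 5′ to 3′ in the sense of the mRNA, with the element in capitals, from GENCODE M21 transcripts on GRCm38.
Atp2a2 (minus strand, chr5:122456412-122456441): atgtctaatgtaTTTTATtgtaacagacat
Atp2b1 (plus strand, chr10:99026020-99026049): gtgttgatttcTTTTAATgatgcttaccat
Atp2b1 (plus strand, chr10:99026057-99026086): agccactgagccTTTTATtatttgtctatt
For comparison, the nuclear signal that lies nearest the end of the Atp2b1 mRNA is shown with those of Itpr1, which rose less, and of Orai1, which fell.
Atp2b1 (plus strand, chr10:99026103-99026132): cttaactcatttAATAAAtatactgtttat
Itpr1 (plus strand, chr6:108551078-108551107): ctaaaaatatttAATAAAcgatgcagaatc
Orai1 (plus strand, chr5:123030427-123030456): aaaagaaaccttcagggatactaATTAAAa

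The elements of Atp2b1 began 113 and 75 bases before the annotated end and that of Atp2a2 began 90 bases before it. The signal began 29 bases before the end in Atp2b1, 20 bases before it in Itpr1 and 7 bases before it in Orai1. Among the 11440 tested genes with at least 150 bases of untranslated sequence, 25.7% held either cytoplasmic element in that window. The share was 41.0% of the 3509 such genes that rose in both lines and 14.1% of the 3641 that fell in both. The same 2 of the 10 genes held an element with windows of 100 or 200 bases. Where the longest coding transcript differed from the principal one, in Itpr2, Cacna1h and Stim1, it held no element either. The Atp2a2 gene reaches on the minus strand to position 122453513, past the searched end at 122456340, and sequence beyond that end was not searched. The principal transcript of Itpr2 (191 bases of 3′ untranslated sequence) had neither signal in the window, whereas its longest transcript (3372 bases) held a signal and no element. A match is a description of the letters, and polyadenylation was not measured.

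Among the receptors that release calcium, Itpr1 and Itpr2 were higher at MII in both lines. Itpr1 (ENSMUSG00000030102.11, chr6:108213096-108551109, plus strand) is known as the main IP3 receptor of the mouse egg. It was at 104 and 119 CPM in native GV and at 185 and 180 CPM in native MII libraries. In the sex-converted line it was at 121 and 109 CPM at GV and at 149 and 172 CPM at MII. Every MII library lay above every GV library, and native MII above sex-converted MII. The log2 fold change of MII over GV was 0.71 (SE 0.181, adjusted p = 0.00516) in the native and 0.48 (SE 0.181, adjusted p = 0.0369) in the sex-converted line. Scaled by library totals alone, these became -0.20 and -0.46, against a shift of -0.913 and -0.935 in the median of all genes, so the rise holds relative to TMM-scaled mRNAs and not relative to all reads. In that setting the sex-converted value passed edgeR's test as a fall, and the native value did not (adjusted p = 0.344).

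Itpr2 (ENSMUSG00000030287.15, chr6:146108299-146502223, minus strand), a receptor with a higher affinity for IP3, followed the same course. It was at 208 and 209 CPM in native GV and at 321 and 324 CPM in native MII libraries. Sex-converted libraries held 194 and 204 CPM at GV and 301 and 255 CPM at MII. The MII libraries again lay above all GV libraries, with the sex-converted pair wider apart than the native pair. MII over GV gave log2 fold changes of 0.63 (SE 0.165, adjusted p = 0.00599) in the native and 0.48 (SE 0.165, adjusted p = 0.0247) in the sex-converted line, and -0.28 and -0.46 with library totals alone. With library totals alone the sex-converted value of Itpr2 too passed edgeR's test as a fall, and the native value did not (adjusted p = 0.148). The calls in the sex-converted line were the less stable, as that of Itpr1 was kept in 4 and that of Itpr2 in 9 of 15 alternative settings.

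Itpr3 (ENSMUSG00000042644.9, chr17:27057304-27122223, plus strand), the isoform best known from epithelia, was rare and passed the test in neither line. In native libraries it was at 5.01 and 5.84 CPM at GV and at 8.69 and 9.03 CPM at MII, with a log2 fold change of 0.71 (SE 0.312, adjusted p = 0.0661). In sex-converted libraries it was at 7.39 and 7.55 CPM at GV and at 6.68 and 5.99 CPM at MII, with -0.24 (SE 0.311, adjusted p = 0.514). The MII libraries were thus the higher in the native and the lower in the sex-converted line. With library totals alone both values were below 0 (-0.20 and -1.17), and the latter passed the test (adjusted p = 0.00662). The difference between these changes, the interaction of line and stage, was -0.95 (95% interval -1.92 to 0.0236, adjusted p = 1.00 in edgeR). Counts behind these values were 61 to 155 reads per library.

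Itpr2 and not Itpr1 had the highest mRNA level of the IP3 receptor family. Per kilobase of exon, Itpr2 made up 63.8% to 69.3% of the family's mRNA at GV and 63.1% to 69.6% at MII. Itpr1 made up at most 32.2% and 34.4%, and Itpr3 at most 4.06%. Itpr2 was also above Itpr1 in each of the 8 libraries when levels were divided by the longest transcript. The shares divide Itpr1 by 18319 and Itpr2 by 14802 exon bases, against 9870 and 11679 in their longest transcripts. With the latter lengths the share of Itpr1 would be larger, and it was not computed. The stage ranges overlapped for Itpr1 and Itpr2, so no shift in their proportions was seen beyond the spread of the libraries. These are mRNA levels, and protein was not measured.

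**Figure D2:**
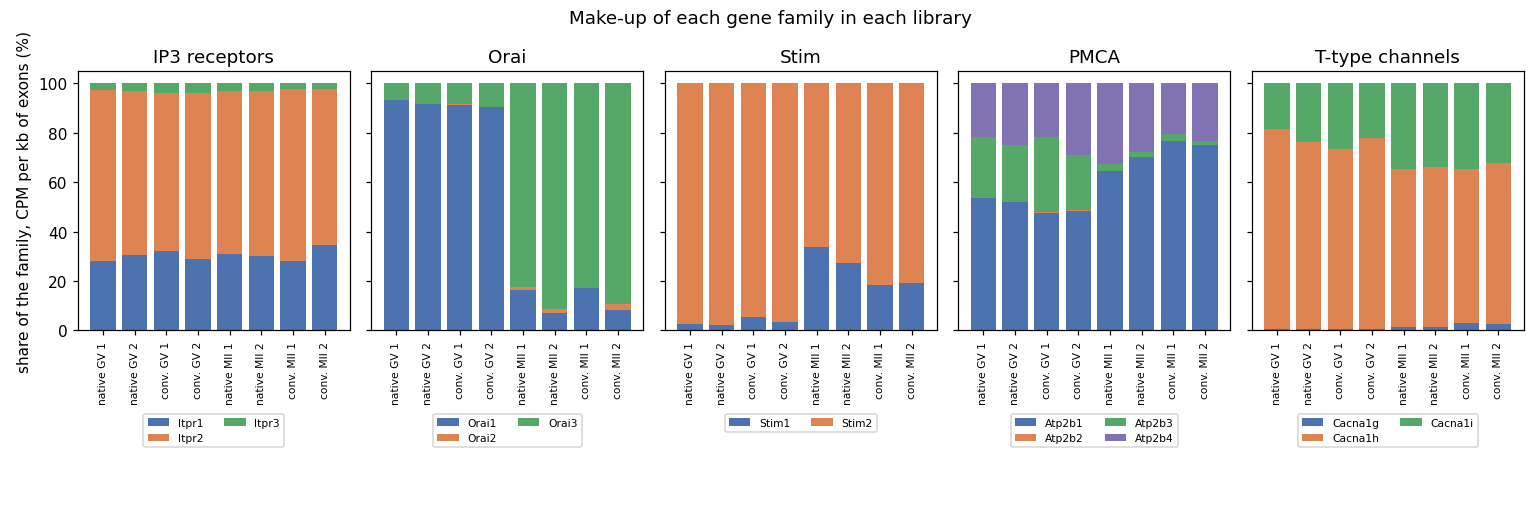
Share of each gene in its family, in percent of the family's CPM per kilobase of exon, for 5 families in each of the 8 libraries. Orai1 makes up 90.2% to 93.2% of the Orai family at GV and 7.03% to 17.3% at MII, whereas the shares of Itpr1 and Itpr2 overlap between the stages.

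Store-operated entry couples Stim proteins, which sense an empty store, to Orai pores in the plasma membrane. Orai1 (ENSMUSG00000049686.14, chr5:123015074-123030456, plus strand), the main pore of this route, was at 58.2 and 78.7 CPM in native and at 77.3 and 61.3 CPM in sex-converted GV libraries. At MII it was at 3.25 and 0.810 CPM in the native line and at 3.39 and 0.761 CPM in the sex-converted line. These are 1045 to 1297 reads in a GV library and 34, 7, 31 and 8 reads in the MII libraries. All GV libraries stood far above all MII libraries, and replicate 1 of each line held more than replicate 2 at MII. The fall on the log2 scale came to -5.03 (SE 0.587, adjusted p = 2.32e-05) in the native and -5.09 (SE 0.59, adjusted p = 2.21e-05) in the sex-converted line, and the call was kept in all 15 alternative settings in each line.

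The size of the fall rested on those replicates. Without native MII replicate 1 it was 84.2-fold and without native MII replicate 2 21.4-fold, and without sex-converted MII replicate 1 or 2 it was 90.3-fold or 20.4-fold. The MII libraries with more Orai1 held more of some somatic markers and less of others. Vim, a mesenchymal filament gene, had 175 and 67 reads in native and sex-converted MII replicate 1 and 21 and 15 in the replicates numbered 2. Acta2, an actin of smooth muscle, had 5 and 35 against 11 and 9, and Pdgfra, a receptor of stromal cells, 6 and 6 against 14 and 4. Of the 14 stromal and blood markers, 4 were higher and 3 lower in CPM in replicate 1 than in replicate 2 in the native line and 6 and 1 in the sex-converted line, with sums of 295 and 217.5 CPM against 233 and 193 CPM. Inha, an inhibin subunit of granulosa cells, had 84 and 29 reads against 21 and 0. Of the 15 granulosa and cumulus markers, 9 were higher and 5 lower in the native line and 10 and 3 in the sex-converted line, with sums of 138 and 120.5 CPM against 116 and 123 CPM. In pooled samples, fewer cells of a type and less RNA per cell cannot be told apart, and the part of somatic RNA in the remaining Orai1 reads was not tested. Vim, Acta2, Pdgfra and Inha were picked from the marker lists after their values were seen.

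Orai1 starts head to head with the antisense gene Gm2479, which overlaps its first 7 bases on the other strand. Gm2479 had 320 to 722 reads at GV and 50 to 96 at MII, with log2 fold changes of -1.94 (adjusted p = 0.000677) and -1.64 (adjusted p = 0.00188) in the native and sex-converted lines by edgeR. Which strand was counted is not stated in these sources, and the overlap is shorter than a read of 75 bases. Orai3, a paralog of Orai1, had 71 to 126 reads at GV and 79 to 161 at MII. It rose in the native line, by 1.26 on the log2 scale (SE 0.422, adjusted p = 0.0213), and had 0.80 in the sex-converted line (SE 0.416, adjusted p = 0.11). Per kilobase Orai3 made up 6.79% to 9.69% of the family at GV and 82.6% to 91.5% at MII, so that the order of the family was reversed. Orai2 had at most 6 reads in any library.

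Stim1 (ENSMUSG00000030987.5, chr7:102267806-102437319, plus strand), the store sensor best known to open Orai1, was among the rarest of the 10 at GV. It was at 2.12 and 1.20 CPM in native and at 4.83 and 3.41 CPM in sex-converted GV libraries, from 17 to 81 reads. At MII it was at 5.63 and 5.90 CPM in native and 5.26 and 4.38 CPM in sex-converted libraries. The native GV libraries lay below all others. Stim1 rose in the native line with a log2 fold change of 1.78 (SE 0.429, adjusted p = 0.00364), a 3.44-fold change that was lost with library totals as the only scaling (0.88, adjusted p = 0.0894). In the sex-converted line it was 0.23 (SE 0.407, adjusted p = 0.641). The difference between the changes was -1.56 (95% interval -2.85 to -0.258), which did not pass the test over all genes (adjusted p = 1.00 in edgeR). Stim2, the more abundant paralog at GV, which responds to smaller losses of store calcium, fell 5.24-fold and 4.36-fold (adjusted p = 4.27e-05 and 8.07e-05). It made up 94.7% to 97.9% of the Stim mRNA per kilobase of exon at GV and 66.1% to 81.5% at MII. At MII Stim1 had 46 to 59 reads and Stim2 57 to 105. The shares divide Stim1 by 10371 exon bases, against 4362 in its longest transcript, and were not computed on the latter. The Stim2 and Orai1 mRNAs, the leading members of both families at GV, thus fell in both lines.

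Trpm7 (ENSMUSG00000027365.14, chr2:126791565-126876230, minus strand) codes for a channel fused to a kinase that carries magnesium and calcium, and is known to support calcium entry in eggs. It was at 40.8 and 43.3 CPM in native and at 55.5 and 58.6 CPM in sex-converted GV libraries. At MII it was at 21.3 and 15.5 CPM in native and 27.5 and 29.1 CPM in sex-converted libraries. Each GV library was above each MII library, and at both stages each sex-converted library was above each native one. Trpm7 fell with log2 fold changes of -1.19 (SE 0.235, adjusted p = 0.000997) and -1.01 (SE 0.231, adjusted p = 0.00257) in the native and sex-converted lines. The difference between lines was 0.44 (95% interval -0.0584 to 0.939) at GV and 0.62 (95% interval 0.0993 to 1.14) at MII, with an adjusted p of 1 in edgeR at each stage.

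Cacna1h (ENSMUSG00000024112.16, chr17:25374285-25433783, minus strand), the pore of a T-type voltage-gated channel, is known to fill the store during maturation. Its levels were 82.8 and 106 CPM in native and 105 and 79.2 CPM in sex-converted GV libraries. They were 62.0 and 51.7 CPM in native and 44.6 and 40.6 CPM in sex-converted MII libraries. The stages did not overlap. It fell with log2 fold changes of -0.73 (SE 0.23, adjusted p = 0.0159) in the native and -1.12 (SE 0.232, adjusted p = 0.00141) in the sex-converted line. The native call was lost without native GV replicate 2 (-0.55, adjusted p = 0.0862) or native MII replicate 2 (-0.63, adjusted p = 0.0989). Cacna1h remained the leading T-type gene, with 72.7% to 81.1% of the family per kilobase at GV and 62.3% to 65.4% at MII, the rest being nearly all Cacna1i.

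Trpv3 (ENSMUSG00000043029.2, chr11:73267388-73300363, plus strand), a warmth-sensitive channel that is known to pass strontium in eggs activated with that ion, was rare. It had 65 to 122 reads at GV and 8 to 25 at MII. Levels were 4.79 and 4.57 CPM in native and 7.27 and 4.97 CPM in sex-converted GV libraries, and 2.20, 1.97, 2.74 and 0.761 CPM in the same order at MII. No MII library reached a GV library. Trpv3 fell in the sex-converted line (log2 fold change -1.82, SE 0.535, adjusted p = 0.0112), and in the native line the value was -1.16 (SE 0.527, adjusted p = 0.0725). The sex-converted change was -1.16 without sex-converted MII replicate 2 (adjusted p = 0.0893), -3.00 without sex-converted MII replicate 1 and -1.52 without sex-converted GV replicate 1 (adjusted p = 0.0538). The native value passed the test in 5 of 15 alternative settings.

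Atp2a2 (ENSMUSG00000029467.15, chr5:122453513-122502225, minus strand) codes for SERCA2, the pump that returns calcium to the endoplasmic reticulum. It was at 439 and 538 CPM in native and at 499 and 448 CPM in sex-converted GV libraries. At MII it was at 1195 and 1392 CPM in native and 1398 and 1243 CPM in sex-converted libraries. Every MII library was above every GV library, and the lines overlapped at both stages. It rose with log2 fold changes of 1.40 (SE 0.169, adjusted p = 2.92e-05) and 1.48 (SE 0.17, adjusted p = 2.05e-05) in the native and sex-converted lines. No other SERCA gene was present beyond a few reads, as Atp2a1 had 0 reads and Atp2a3 at most 4 in any library.

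Atp2b1 (ENSMUSG00000019943.10, chr10:98914406-99026143, plus strand) codes for PMCA1, a pump that drives calcium out across the plasma membrane. It was at 82.6 and 69.7 CPM in native and at 72.3 and 69.4 CPM in sex-converted GV libraries. At MII it was at 264 and 309 CPM in native and 368 and 336 CPM in sex-converted libraries. The stages were far apart, and at MII the sex-converted libraries lay above the native ones. The rise was 1.91 on the log2 scale (SE 0.185, adjusted p = 6.24e-06) in the native and 2.31 (SE 0.187, adjusted p = 1.98e-06) in the sex-converted line. The calls of Atp2a2 and Atp2b1 as rises were kept in all 15 alternative settings in each line, library totals as the only scaling included. The size of both rises depended on the scaling and was smaller with library totals, where the median of all genes shifted by -0.913 and -0.935. Among its paralogs, Atp2b4 rose 3.83-fold and 2.71-fold (adjusted p = 1.62e-05 and 0.000125) and Atp2b3 fell 3.27-fold and 3.81-fold (adjusted p = 0.00276 and 0.00126). Atp2b1 went from 47.4% to 53.6% of the family per kilobase at GV to 64.4% to 76.6% at MII.

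**Figure D3:**
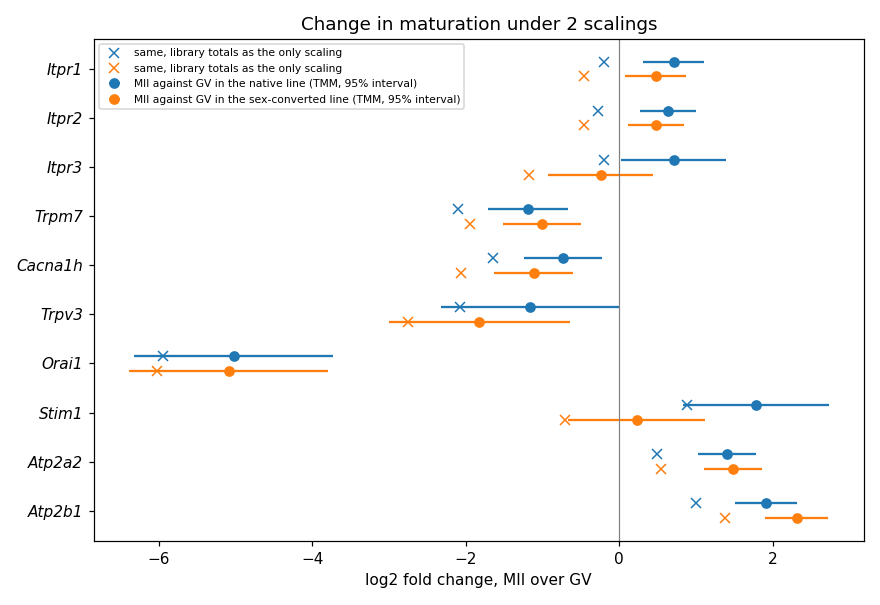
Log2 fold change of MII over GV for each gene, with 95% intervals, in the native line (blue) and the sex-converted line (orange), and as crosses the value scaled by library totals alone. The crosses lie to the left of the points throughout, and only for Itpr1 and Itpr2 in both lines, Itpr3 in the native line and Stim1 in the sex-converted line do they lie across 0 from them.

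The order of the levels changed from stage to stage. Per kilobase of exon, the order in native GV oocytes was Atp2a2 (80.4 CPM per kilobase), Orai1 (29.8), Itpr2 (14.1), Cacna1h (9.67), Itpr1 (6.09), Atp2b1 (5.00), Trpm7 (3.72), Trpv3 (0.802), Itpr3 (0.602) and Stim1 (0.160). No neighbours overlapped in their libraries, though Cacna1h, Itpr1 and Atp2b1 did when divided by the longest transcript. Sex-converted GV oocytes had the same order per kilobase of exon but for Trpm7, which stood above Atp2b1. Divided by the longest transcript, Atp2b1 (9.94) stood above Trpm7 (8.03) there without overlap, as in the native line. In native MII oocytes the order was Atp2a2 (213), Itpr2 (21.8), Atp2b1 (18.8), Itpr1 (9.96), Cacna1h (5.82), Trpm7 (1.63), Itpr3 (0.982), Orai1 (0.884), Stim1 (0.556) and Trpv3 (0.357), and Orai1 did not differ from Itpr3, Stim1 or Trpv3 beyond the spread of its libraries. In sex-converted MII oocytes Atp2b1 (23.1) stood above Itpr2 (18.8), as it did in both lines when levels were divided by the longest transcript. Among 14921 tested genes with a length, Orai1 went from percentile 89.99 to percentile 37.8 of the level per kilobase in the native line and Atp2b1 from 59.8 to 82.2, whereas Atp2a2 was at 97.4 and 98.2.

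The lines did not differ in any of the 10 genes by the test. At GV 0 of 10 were called, beside 0.0134% of all genes (0.0067% higher and 0.0067% lower), and the same held at MII (0 of 10, beside 0.0134%, again 0.0067% each way) and for the interaction of line and stage (0 of 10, beside 0%). At an unadjusted p under 0.05 edgeR gave 1 of the 10 at GV (Stim1), 1 at MII (Trpm7) and 1 for the interaction (Stim1), beside 2.14%, 3.68% and 2.2% of all genes. DESeq2 called 0 in each. Libraries of the lines did not overlap for 5 genes at GV and for 7 at MII, beside 23.5% and 31% of all genes. The widest gap was that of Stim1 at GV, with a log2 fold change of sex-converted over native of 1.29 (95% interval 0.364 to 2.22, adjusted p = 1). For the abundant genes the intervals were narrower than that of Stim1. At GV they were -0.348 to 0.446 for Itpr1, -0.427 to 0.298 for Itpr2, -0.412 to 0.321 for Atp2a2 and -0.499 to 0.291 for Atp2b1. At MII they were -0.582 to 0.214 for Itpr1, -0.580 to 0.147 for Itpr2, -0.336 to 0.396 for Atp2a2 and -0.0957 to 0.689 for Atp2b1, and the libraries of the lines did not overlap for Itpr1, Itpr2 and Atp2b1. For Orai1 the interval reached from -0.982 to 1.02 at GV and from -1.50 to 1.41 at MII. For all these genes, differences between the lines inside the bounds given were not excluded.

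Other genes of calcium handling were split in direction within every group. Their share called in both lines with the same sign stands beside 26.9% of all tested genes for rises and 32% for falls. All these values are TMM-scaled. With library totals alone the median of all genes shifted by -0.913 in the native and -0.935 in the sex-converted line. Rises smaller than that shift, such as those of Ppp3ca and of Rnf170 in the native line, hold relative to TMM-scaled mRNAs only. Of 25 tested channels, pumps and exchangers outside the 10, 6 rose and 7 fell in both lines. Trpc1, a receptor-operated cation channel subunit, rose 10.3-fold and 9.47-fold, Saraf, which turns off store-operated entry, 3.50-fold and 3.39-fold, and Pkd2, a polycystin channel, with log2 fold changes of 2.03 and 1.46. The falls included Stim2, Atp2c2, a Golgi calcium pump (-2.16 and -1.95), and Atp2b3. The ryanodine receptor genes Ryr2 and Ryr3, the other kind of store release channel, had 89 to 176 reads at GV and 46 to 114 at MII and were not called in either line (adjusted p of 0.12 and 0.152 for Ryr2, 0.716 and 0.104 for Ryr3).

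Genes of the phospholipase C family, which holds enzymes that make IP3 and relatives without that activity, gave 3 rises and 5 falls among 11 tested. Plcb3 rose with log2 fold changes of 2.99 and 2.56 and Plcl1, a relative without enzyme activity, with 2.35 and 2.34. Plcg1 fell with -2.51 and -2.10, Plce1 with -2.12 and -1.76 and Plcg2 with -1.36 and -1.46. The sperm enzyme gene Plcz1 had 0 reads in all 8 libraries. Of 13 tested genes that bind, modify or degrade the IP3 receptor or its ligand, 5 rose and 3 fell. Erlin1 and Rnf170, which take part in degrading activated receptors, rose with log2 fold changes of 1.98 and 2.06 and of 0.80 and 1.13, and Erp44, which binds the receptor inside the store, with 1.19 and 1.76. Itprip, which binds the receptor and raises its sensitivity to calcium inhibition, fell from 73.3 and 87.3 CPM at GV to 3.25 and 1.74 CPM at MII in native and sex-converted oocytes (log2 fold changes -4.46 and -5.67, adjusted p = 1.95e-05 and 6.70e-06). Ahcyl2 fell with -2.03 and -2.21.

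Genes that read the calcium signal gave 3 rises and 6 falls among 19 tested. Camk2g, the kinase known to release the egg from MII arrest and named here after its values were seen, fell from 347 and 362 CPM at GV to 82.1 and 86.6 CPM at MII (log2 fold changes -2.08 and -2.06, adjusted p = 1.00e-04 and 0.000104). The calmodulin genes Calm3 and Calm2 fell with -3.21 and -3.57 and with -3.08 and -2.89, and the calcineurin subunit gene Ppp3cc with -2.86 and -2.89. The calcineurin regulators Rcan3 and Rcan1 rose with 2.12 and 2.13 and with 1.85 and 1.72. Ppp3ca, another calcineurin subunit gene, rose with 0.82 and 0.66 by TMM scaling, less than the shift of the median with library totals. Calcium-binding proteins of the store gave 4 rises and 6 falls among 14. Rcn2, Canx and Pdia6 rose with 2.45 and 2.53, with 2.26 and 2.14 and with 1.26 and 1.32. Pdia4, Casq2 and Calr fell with -2.55 and -2.75, with -2.02 and -1.98 and with -1.77 and -1.65. Of these, Calr codes for calreticulin, the main calcium buffer of the endoplasmic reticulum, and went from 522 and 476 CPM to 153 and 152 CPM.

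Mitochondria take up calcium in each wave. Of 11 tested genes of this route, 3 rose and 6 fell in both lines. Mcu, the pore of the uniporter, rose from 85.0 and 81.0 CPM to 632 and 593 CPM (log2 fold changes 2.89 and 2.87, adjusted p = 6.22e-07 and 6.97e-07). Vdac1, an outer membrane channel, rose with 1.92 and 1.93, and Mcur1 with 1.12 and 1.36. Letm1, an inner membrane exchanger, fell with -4.37 and -4.25, Vdac3 with -3.19 and -2.90, and Micu2, a gatekeeper of the uniporter, with -2.19 and -1.08.

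**Figure D4:**
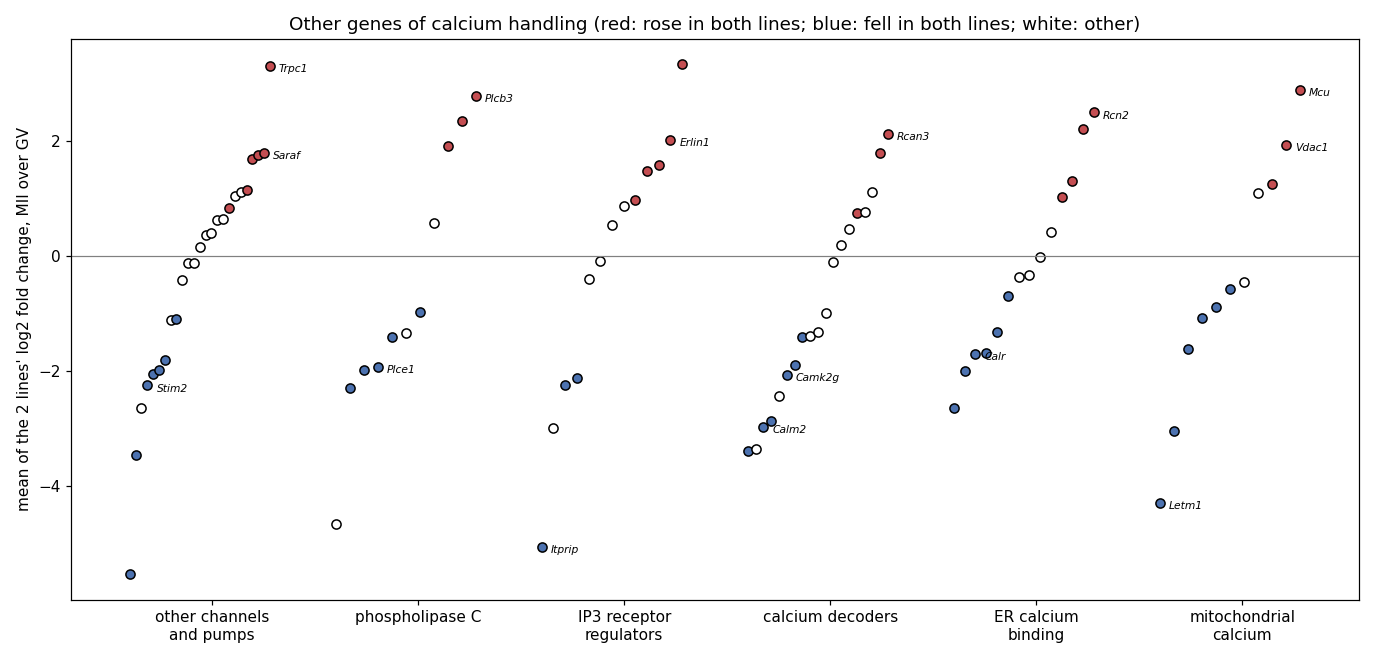
Mean of the 2 lines' log2 fold changes of MII over GV for each tested gene in 6 groups of calcium genes, red where the gene rose and blue where it fell in both lines at an adjusted p under 0.05, white otherwise. Each group holds genes above and below 0, with Mcu and Letm1 at the ends of the mitochondrial group and Itprip at the bottom of the IP3 receptor regulators.

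The genes most like a member were found by the root mean square difference of centred log2(CPM + 0.5) over the 8 libraries, a description that stage dominates. Closest to Itpr1 were Inpp5a (0.0648), Smurf1 (0.0676) and Tulp4 (0.0724), which went from 39.1 to 56.9, from 89.9 to 139.5 and from 51.4 to 75.7 CPM. Closest to Atp2a2 were Ksr1 (0.0813), Arhgap28 (0.0819) and Acly (0.0844), each of which was higher at MII. Closest to Cacna1h were Scaf1 (0.0738), Zfp319 (0.0802) and Spc24 (0.0955), and closest to Trpm7 were Cnot9 (0.173), Mcm10 (0.18) and Pex19 (0.185), all lower at MII.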

How the data were processed

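The authors deposited raw counts of reads per gene for 8 libraries in 1 table, whole numbers with no normalization. Per the submitters' processing notes, Trimmomatic 0.38, HISAT2 2.1.0, featureCounts 2.0.0 and DESeq2 1.30.1 were used with build mm10. Neither the strand setting nor the handling of multiply mapped reads was stated. Symbols, positions and lengths came from GENCODE M21 on GRCm38 by identifier without version (55144 matched, 241 did not).

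Counts were tested with edgeR 4.0.16 (quasi-likelihood, TMM factors of 0.714 to 1.43, filterByExpr, 14929 genes), with all 8 libraries in 1 fit of 4 groups. Tests were two-sided with Benjamini-Hochberg adjustment over all genes and a threshold of 0.05. Standard errors were derived from the log2 fold change and its F statistic. The fit was run on simulated counts with changes seeded in a small part of the genes. That setting did not hold the wide shift between GV and MII, so it does not bear on the scaling between stages. Alternatives were RLE factors, library totals, other filters, DESeq2 1.42.0, only the groups compared, a replicate block and leaving out each library. Members and lists were chosen with earlier results of these data known. Genes outside the 10 were named by a rule: up to 3 per list and direction called in both lines, by size of change, at 10 CPM or more, or the 2 most abundant where none was called; paralogs of members, Plcz1, Ryr2, Ryr3 and Camk2g were added for family or role.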

Additional observations from a re-analysis of the deposited data

How the results depend on the processing

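Among 16 calls of MII against GV over the 10 genes, 9 were kept under every alternative setting run: Orai1, Trpm7, Atp2a2 and Atp2b1 in both lines and Cacna1h in the sex-converted line. With library totals as the only scaling Itpr1 reversed to -0.20 and -0.46 and Itpr2 to -0.28 and -0.46 in the native and sex-converted lines, and over all genes the share of calls that were rises became 24.6% and 23.4% in place of 45.3% and 44.7%. The sex-converted values of Itpr1 and Itpr2 then passed the test as falls, with 2 of the 10 genes higher and 7 lower, beside 68.0% of all genes called. In the native line neither passed, with 2 higher and 4 lower, beside 67.7%. With each library left out in turn, 7 to 9 of the 10 genes were called in the native and 5 to 8 in the sex-converted line, beside 51.9% to 62.2% and 50.4% to 62.6% of all genes in those fits. The fewest, 5, came without sex-converted GV replicate 1, where 54.8% of all genes were called. Between the lines and for the interaction, 0 of the 10 were called under any alternative, with a lowest adjusted p of 0.897. Over all genes the lines differed in 2 genes at GV and 2 at MII. Counts were 13, 34 and 3 (interaction, 0 otherwise) with no filter, 3 at either stage with DESeq2, 1 with only the groups compared, and at MII 0 with library totals, the stricter filter of 50 reads or the block. Leaving out 1 library gave 1 to 3 at GV and 0 to 3 at MII.

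With the replicate number as a block, 8 of the 10 genes were called in the native and 7 in the sex-converted line, beside 62.2% and 62.6% of all genes, Itpr1 being lost in the latter (0.47, adjusted p = 0.0654). Deviations of same-numbered libraries from their group means correlated at -0.443 between the GV groups of the lines. The other pairs of groups gave -0.0617 to 0.171, so equal numbers do not pair the samples. At GV, replicate 1 of a line thus varied more like replicate 2 of the other line, and the source of this was not tested. With the GV numbers crossed, chosen after seeing the data, 2 genes and 0 of the 10 were called between lines at GV. The crossed block was not run for MII against GV. Dividing by the longest transcript moved 25 of 40 levels per kilobase by more than 1 SD. Depth limits Orai1 and Trpv3 at MII, at 7 to 34 and 8 to 25 reads.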
